A study of Arabidopsis thaliana with 9 samples.

Results

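Transcript levels of 3 auxin transport genes, ABCB21, LAX3 and WAG2, were followed in cauline buds of Arabidopsis. The 3 genes were chosen by name, and each had 1 probe set on the Affymetrix ATH1 array, out of 13384 genes with a named probe set. ABCB21 (AT3G62150, probe set 251248_at) and LAX3 (AT1G77690, probe set 259680_at) are paired with a probe set here only through the list of transcripts published with the study, whereas WAG2 (AT3G14370, probe set 258367_at) is named by the platform annotation. Buds came from isolated nodal stem segments of wild-type Col-0 plants, aged 3 to 4 weeks and bearing the bud of node 1, which were kept for 18 h in split agar plates. Each of 3 groups had 3 biological replicates and 1 array per replicate, 9 arrays in all. By their labels, mock segments received ethanol apically, NAA segments 1 µM of the synthetic auxin 1-naphthaleneacetic acid (NAA) apically, and NAA+BA segments 1 µM NAA apically with 1 µM of the cytokinin (CK) 6-benzylaminopurine (BA) basally. The study's methods also name DMSO, the solvent of BA, as the basal mock treatment. Whether a sample pooled the buds of several plants is not given in the sources used here.

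Auxin made in the shoot apex moves down the stem from cell to cell, and the growth of a bud has been linked to its ability to export auxin into the stem. Import into cells is aided by the AUX1/LAX influx carriers, and export by PIN carriers and by transporters of the ABCB family, which use ATP. AGC kinases such as PINOID and its relatives phosphorylate PIN carriers and influence on which side of the cell they reside. ABCB21 is a plasma membrane auxin transporter that can work in either direction, LAX3 is an influx carrier known for its part in lateral root emergence, and WAG2 is a kinase close to PINOID.

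The names of the groups need care. The study's published list is headed as transcripts that auxin lowers against the ethanol control and that the addition of CK to auxin raises again. Of its 220 entries, 0 were lower and 220 were higher on the arrays labelled NAA than on those labelled mock, and all 220 exceeded labelled mock on the NAA+BA arrays as well. The heading therefore fits the deposited values if the names mock and NAA are exchanged. Groups are named by their labels below. In the grouping of the published list, the arrays labelled mock would be auxin alone and those labelled NAA the ethanol control, so every direction between these groups is opposite to that of the study. ABCB21 and LAX3 are 2 of the 220 entries, which were selected on these arrays, so their direction against labelled mock is not independent evidence.

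Values are log2 expression values, and array medians lay between 6.99 and 7.11. The first and second arrays correlated at 0.994 in mock and 0.997 in NAA over all probe sets, and the third array of these groups correlated with them at 0.975 to 0.979 and at 0.986 to 0.987. Of 9 listed shoot bud and meristem genes, 3 have a named probe set. The boundary gene CUC3, itself an entry of the published list, stood between 5.39 and 5.80 on the mock arrays, between 6.23 and 7.20 on NAA and between 7.08 and 7.42 on NAA+BA. It was called higher than in mock in both groups (log2 difference 1.23, adjusted p = 0.00730, and 1.69, adjusted p = 0.00220, from limma). LAS stood between 5.60 and 6.18 on the 9 arrays and was not called, and the stem cell gene CLV3 between 3.64 and 4.72, below 5 on all 9. None of 7 listed stem vascular genes has a named probe set. The summed linear level of the 2 measured root genes of 5 listed, EXPA7 and PYK10, was 61.8 to 110.9 on the mock arrays, 40.5 to 42.6 on NAA and 35.3 to 55.5 on NAA+BA. PYK10 was called lower than in mock on NAA (log2 difference -1.36, adjusted p = 0.0138 from limma) and on NAA+BA (-1.37, adjusted p = 0.0127 from limma). EXPA7 was called in neither comparison (-0.46, adjusted p = 0.226, and -0.27, adjusted p = 0.511, from limma). PYK10 was above 5 on 3 mock arrays, 0 NAA arrays and 1 NAA+BA array, and EXPA7 on 1 of the 9 arrays. CUC3 and PYK10 thus moved between the same groups as the genes described below, and their part in those results was not tested. Among 5 measured genes often induced early by auxin, IAA19 and GH3.3, both entries of the published list, were called higher on NAA than mock (1.10 and 1.11). GH3.5 was called lower (-2.25) and IAA29 and GH3.1 were not called (-0.02 and 0.01). The reference gene UBC21 differed by -0.02 between NAA and mock and by 0.00 between NAA+BA and mock.

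ABCB21 transcript was low on the arrays labelled mock and several-fold higher on both other groups. It stood at 4.35, 4.50 and 5.26 on the mock arrays, at 6.68, 6.65 and 7.45 on the NAA arrays and at 7.63, 6.93 and 7.22 on the NAA+BA arrays. Every NAA and NAA+BA array was above every mock array, while NAA and NAA+BA overlapped, and the third array was the highest in mock and in NAA. Group means were 4.70 ± 0.49 (SD, n = 3) for mock, 6.93 ± 0.45 (SD, n = 3) for NAA and 7.26 ± 0.35 (SD, n = 3) for NAA+BA. The gap between the highest mock and the lowest NAA array was 1.39. From mock to NAA the log2 difference was 2.22 (standard error 0.29, 95% confidence interval 1.57 to 2.88, adjusted p = 0.00165 from limma), a fold of 4.67. From mock to NAA+BA it was 2.56 (standard error 0.29, 95% confidence interval 1.90 to 3.22, adjusted p = 0.00120 from limma), a fold of 5.89. Calls required at least a 2-fold change besides an adjusted p below 0.05. By this rule 1.28% of all 22810 probe sets were called with higher values in NAA than in mock, and 2.19% with higher values in NAA+BA. Without regard to the test, the values of the 3 arrays lay wholly above those of mock for 17.3% of probe sets in NAA and 18.8% in NAA+BA. Of the 3 mock arrays, 2 were below 5, the level used here to set dim probe sets apart. Whether they were above background was not tested, so the folds hold for the measured values and may not give the size of the change in transcript. In tissue samples such as whole buds, a change in the number of expressing cells and one in the transcript level per cell cannot be told apart.

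**Figure D1:**
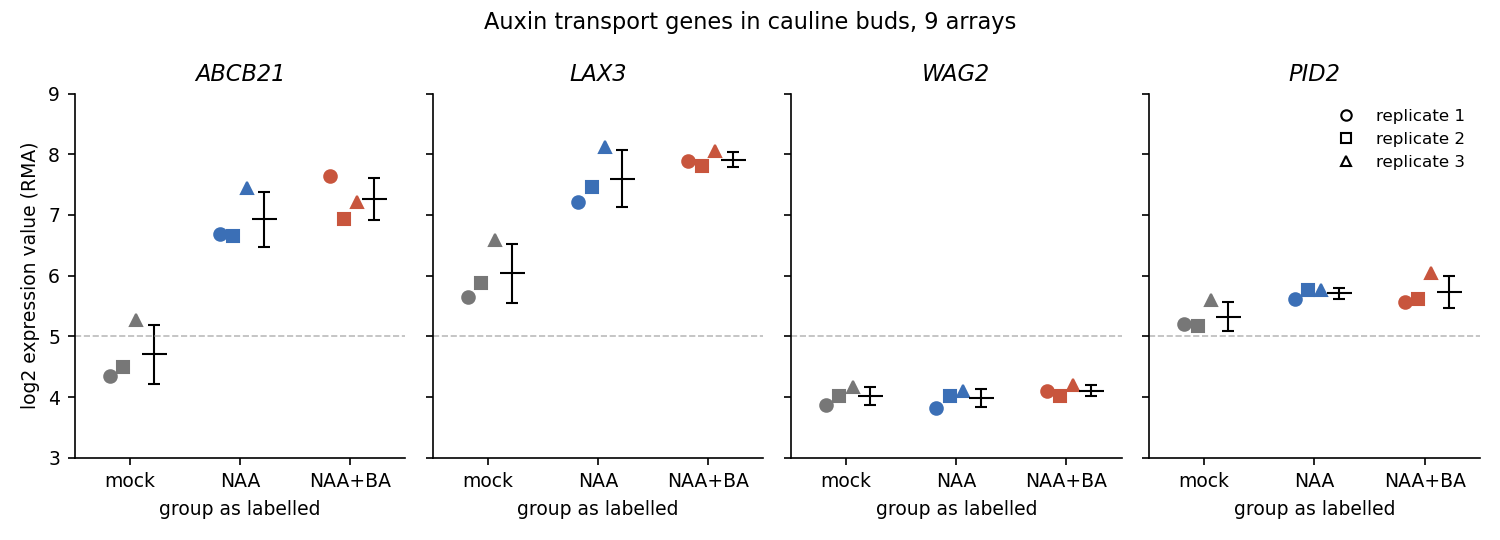
Log2 expression value (vertical axis) of ABCB21, LAX3, WAG2 and PID2 on each of the 9 arrays by labelled group (horizontal axis), with marker shape for the replicate number, black bars for the mean ± SD (n = 3) and a dashed line at 5, the level used to set dim probe sets apart. All mock arrays lie below all NAA and NAA+BA arrays for ABCB21 and LAX3, and WAG2 lies between 3.82 and 4.20 on all 9 arrays.

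LAX3 followed the same order of groups. Its values were 5.65, 5.88 and 6.59 on the mock arrays, 7.21, 7.46 and 8.12 on the NAA arrays and 7.88, 7.81 and 8.05 on the NAA+BA arrays. Mock did not overlap with NAA, with a gap of 0.62, or with NAA+BA, with a gap of 1.22, and the third array was the highest in each of the 3 groups. The means were 6.04 ± 0.49 (SD, n = 3) for mock, 7.60 ± 0.47 (SD, n = 3) for NAA and 7.91 ± 0.12 (SD, n = 3) for NAA+BA, so that spread was smallest with NAA+BA. The log2 difference from mock to NAA was 1.55 (standard error 0.27, 95% confidence interval 0.95 to 2.16, adjusted p = 0.00526 from limma), a fold of 2.94. From mock to NAA+BA it was 1.87 (standard error 0.27, 95% confidence interval 1.26 to 2.47, adjusted p = 0.00263 from limma), a fold of 3.65. In the grouping of the published list, ABCB21 and LAX3 would fall by the same amounts from the control to auxin alone, and rise from there to auxin plus CK.

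WAG2 transcript did not pass the test in any comparison. The kinase gene stood at 3.87, 4.02 and 4.16 on the mock arrays, at 3.82, 4.02 and 4.10 on the NAA arrays and at 4.09, 4.02 and 4.20 on the NAA+BA arrays. The 3 groups overlapped, and the 9 values were all below 5, so that WAG2 did not pass a filter on dim probe sets, which ABCB21 and LAX3 did. For ABCB21 this filter was met mainly through the groups in which it was high, since 1 of 3 mock arrays was above 5. Group means of WAG2 were 4.02 ± 0.15 (SD, n = 3), 3.98 ± 0.15 (SD, n = 3) and 4.11 ± 0.09 (SD, n = 3) for mock, NAA and NAA+BA. The log2 difference was -0.04 for NAA against mock (95% confidence interval -0.32 to 0.25, adjusted p = 0.883 from limma) and 0.09 for NAA+BA against mock (95% confidence interval -0.20 to 0.38, adjusted p = 0.709 from limma). A 2-fold difference in the measured values, which is 1 on this scale, lies outside both intervals. Whether the WAG2 probe set was above background was not tested, and close to background the values of a probe set follow its transcript less closely.

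Addition of BA to NAA, as labelled, left all 3 genes without a call. From NAA to NAA+BA the log2 difference was 0.34 for ABCB21 (standard error 0.29, 95% confidence interval -0.32 to 0.99), 0.32 for LAX3 (standard error 0.27, 95% confidence interval -0.29 to 0.92) and 0.13 for WAG2 (standard error 0.13, 95% confidence interval -0.16 to 0.41). The adjusted p from limma was 1.000 for each of them, and 0.00877% of all probe sets, 2 of 22810, were called. For each gene the NAA and NAA+BA arrays overlapped. The intervals show the precision that 3 arrays per group give. For ABCB21 and LAX3 they reach from a slight decrease to almost a doubling, and the fold interval of ABCB21 is 0.80 to 1.99. Without NAA replicate 3 the estimates were 0.60 for ABCB21 and 0.58 for LAX3, and without NAA+BA replicate 1 that of ABCB21 was 0.15, with no call in either case. Without NAA replicate 1 that of LAX3 was 0.12. The levels were thus in the order NAA+BA, NAA, mock for ABCB21 and LAX3, and the first and second of this order did not differ beyond their spread. In the grouping of the published list this is the comparison of auxin plus CK with the control.

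**Figure D2:**
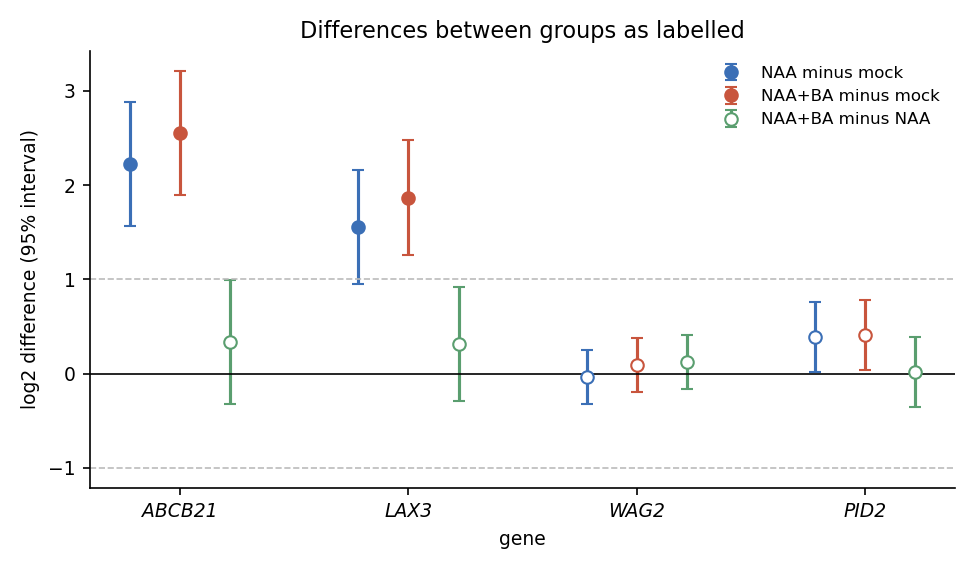
Log2 difference (vertical axis) between labelled groups for each gene (horizontal axis) with its 95% confidence interval from limma, n = 3 arrays per group, filled circles for called differences and dashed lines at a 2-fold change. ABCB21 and LAX3 are called against mock, with estimates of 1.55 to 2.56, and every interval for NAA+BA minus NAA includes 0.

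Within replicate numbers the step from mock to NAA was nearly the same in all 3 pairs of arrays. For ABCB21 the log2 difference between NAA and mock was 2.33, 2.15 and 2.18 in numbers 1, 2 and 3 (mean 2.22 ± 0.10, SD, n = 3). For LAX3 it was 1.55, 1.58 and 1.53 (mean 1.55 ± 0.03, SD, n = 3). The spread of these differences was thus smaller than that between the arrays of a group, which was 0.45 to 0.49 for both genes in mock and NAA. The third array stood above its group mean in mock and NAA, by 0.56 and 0.52 for ABCB21 and by 0.55 and 0.52 for LAX3. Pairing by number is not established. WAG2 differed by -0.05, 0.00 and -0.06 in the same pairs.

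Same-numbered NAA+BA arrays are not shown to be pairs of the NAA or mock arrays, as deviations from the group means correlated at 0.04 for number 1 of NAA+BA and NAA and at 0.08 for number 2 of NAA+BA and mock. Other numbers correlated more closely, at 0.30 and 0.36 for numbers 2 and 3 of NAA+BA and NAA. For numbers 1 and 3 of NAA+BA and mock the values were 0.24 and 0.51. The differences by number are given for these comparisons as values alone. For ABCB21 the difference between NAA+BA and NAA was 0.95, 0.28 and -0.23 in numbers 1, 2 and 3, and for LAX3 0.67, 0.34 and -0.07. Both genes were thus above 0 in 2 of 3 numbers. Against mock, NAA+BA was higher in 3 of 3 numbers, by 3.28, 2.44 and 1.96 for ABCB21 and by 2.23, 1.92 and 1.46 for LAX3.

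**Figure D3:**
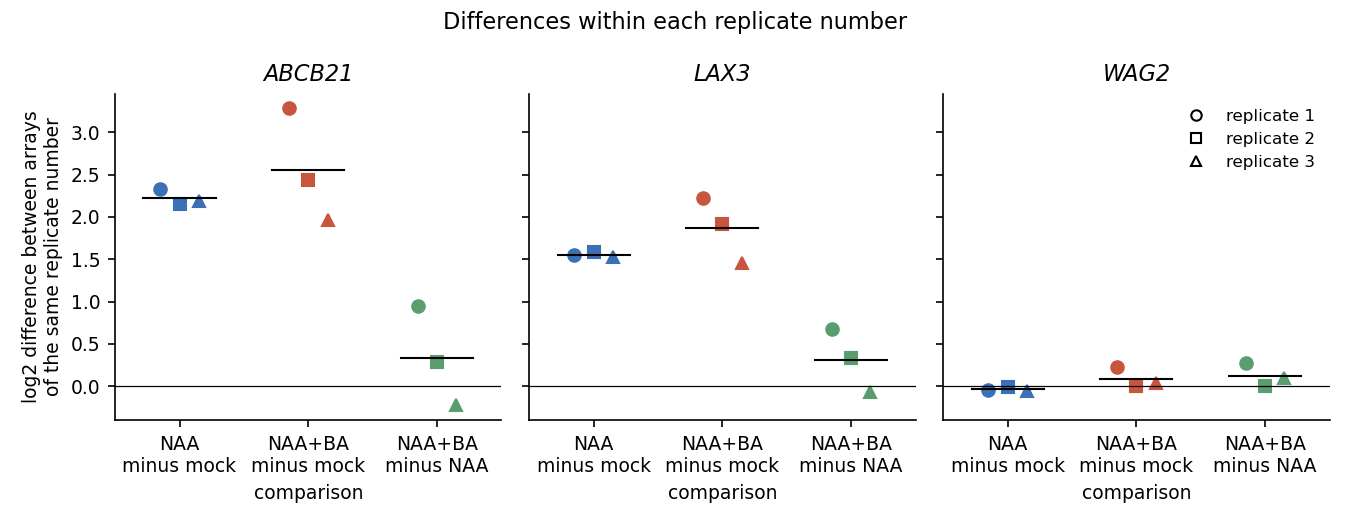
Log2 difference between arrays of the same replicate number (vertical axis) for 3 comparisons of labelled groups (horizontal axis), with marker shape for the number and a black line at the mean of the 3 differences. The NAA minus mock points of ABCB21 lie between 2.15 and 2.33 and those of LAX3 between 1.53 and 1.58, and NAA+BA minus NAA runs from -0.23 to 0.95 for ABCB21.

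The third array of a group carried the highest value in 8 of the 9 combinations of gene and group, the exception being ABCB21 with NAA+BA. Number 3 was the highest in all 3 groups for 15.8% of all probe sets and in at least 2 groups for 40.1%. From the arrays numbered 1 and 2 alone, a choice made once the values were known, the log2 difference between NAA and mock was 2.24 for ABCB21 and 1.57 for LAX3, against 2.22 and 1.55 with all arrays, and both remained called. For NAA+BA against mock the same arrays gave 2.86 and 2.07, both called, and for NAA+BA against NAA 0.62 (adjusted p = 0.681 from limma) and 0.51 (adjusted p = 0.545 from limma).

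ABCB21 and LAX3 also varied together among the arrays of mock and among those of NAA. They did so less among the NAA+BA arrays. There, replicates 1, 2 and 3 deviated from the group mean by 0.37, -0.33 and -0.04 for ABCB21. For LAX3 the same replicates deviated by -0.03, -0.11 and 0.14. Over the 9 arrays the values of ABCB21 and LAX3 had a Pearson correlation of 0.98. The deviations from the group means had one of 0.87 over the same 9 arrays. On each array the values of both genes come from the same RNA sample and normalization. For WAG2 the deviations correlated at 0.90 with those of LAX3 and at 0.72 with those of ABCB21, while they spanned a range of only -0.16 to 0.15. All of these are descriptions.

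Within each array, the log2 value of ABCB21 minus that of LAX3 was -1.30, -1.39 and -1.33 in mock, -0.53, -0.82 and -0.67 in NAA, and -0.25, -0.87 and -0.83 in NAA+BA. The mock arrays did not overlap with either other group. The mean of this difference was -1.34 ± 0.04 (SD, n = 3) in mock, -0.67 ± 0.15 (SD, n = 3) in NAA and -0.65 ± 0.35 (SD, n = 3) in NAA+BA. This measure was chosen after its values were seen and is given as a description. Against mock, an exact permutation test gave p = 0.1 both for NAA and for NAA+BA. That is the smallest p possible with 3 arrays per group, so the test cannot decide. ABCB21 was below 5 on 2 of the 3 mock arrays and LAX3 on none, and probe sets can differ in how closely their values follow the transcript, so the size of this difference does not compare the transcripts themselves.

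**Figure D4:**
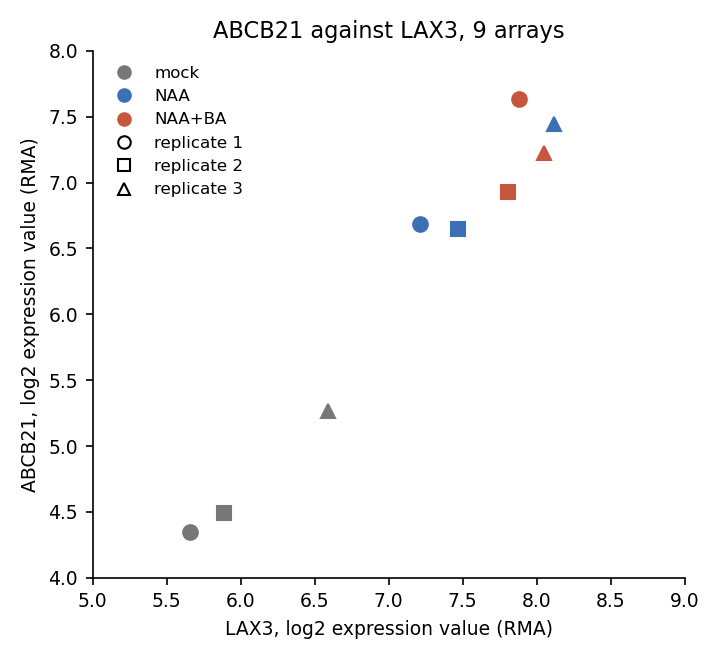
Log2 expression value of ABCB21 (vertical axis) against that of LAX3 (horizontal axis) on the 9 arrays, with colour for the labelled group and marker shape for the replicate number. The 3 mock arrays lie apart at the lower left, at most at 5.26 for ABCB21 and 6.59 for LAX3, and NAA and NAA+BA overlap at the upper right.

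Of other auxin transport genes, those with a name in the tables used here could be followed. The platform annotation used does not list 8794 of the 22810 probe sets, so that a gene may be on the array without a named probe set here. With the published list added, 4 of 47 genes listed had a name, namely ABCB21 of 12 ABCB transporter genes, LAX3 of 4 influx carrier genes, and WAG2 and PID2 of 4 AGC kinase genes of the PINOID group. The other listed genes are not analysed here. Of the 4 measured genes, 2 were called higher and 0 lower both in NAA and in NAA+BA against mock, with a median log2 difference of 0.97 and 1.14, where the median of all probe sets was 0.04 and 0.02. The 2 called genes are measured here because the published list, selected on these arrays, names them, so that the share called says nothing about the pathway. Of the other 2, WAG2 and PID2, limma called 0 in either comparison, and 1, PID2, had an unadjusted p under 0.05 in both, as did 31.6% of all probe sets for NAA and 31.9% for NAA+BA against mock. From NAA to NAA+BA limma called 0 of the 4, at a median of 0.22, and 0 had an unadjusted p under 0.05, which 2.49% of all probe sets had.

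PID2 (AT2G26700, probe set 267613_at), a relative of PINOID, stood at 5.20, 5.17 and 5.60 on the mock arrays, at 5.61, 5.76 and 5.77 on the NAA arrays and at 5.56, 5.61 and 6.04 on the NAA+BA arrays. The mock and NAA arrays did not overlap, by a gap of 0.01, while mock and NAA+BA did. The log2 difference was 0.39 for NAA against mock (95% confidence interval 0.02 to 0.76, adjusted p = 0.138 from limma) and 0.41 for NAA+BA against mock (95% confidence interval 0.04 to 0.78, adjusted p = 0.117 from limma), neither of which passed. From NAA to NAA+BA it was 0.02 (95% confidence interval -0.35 to 0.39). A 2-fold difference lies outside all 3 intervals.

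Named probe sets with the most similar course over the 9 arrays were sought among 13436. For ABCB21 these were AT5G63680 (Pearson correlation 0.99), AT1G79540 (0.98) and EXPA4 (0.98), an alpha-expansin gene of cell wall loosening. For LAX3 they were AT5G63680 (0.99), AT2G19880 (0.99) and AT5G16070 (0.99), so that AT5G63680 led for both genes. Its mean was 8.22 in mock, 8.68 in NAA and 8.79 in NAA+BA, a smaller span than that of either gene. A correlation above 0.9 was shared by 539 probe sets with ABCB21 and by 661 with LAX3. For WAG2 the number was 10, led by AT2G25360 (0.96), AT5G01700 (0.94) and AT2G17610 (0.92), whose group means differed by at most 0.09 between groups.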

How the data were processed

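RNA from 9 bud samples was hybridised to ATH1 arrays. The deposited log2 values were made by the authors with the RMA algorithm in R 2.15. The RMA version is not stated in the sources used here. No filter or transformation was applied to the 22810 probe sets, and precision is limited by the number of arrays. Samples were grouped by their labels. Group means were estimated in 1 fit of all 9 arrays with limma 3.58.1 in R 4.3.3 (lmFit and eBayes), and p-values were adjusted by Benjamini-Hochberg within each comparison, across every probe set. The procedure was tested on simulated data.

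Names came from the platform annotation for the 13436 probe sets that it pairs with a single gene, and by the locus column of the published list of 220 transcripts. Its columns of fold changes and p-values were not used. The 3 genes, the gene lists, the tests and the alternatives were chosen with earlier results of these data known. The text names the 3 genes, other listed auxin transport genes of the same roles, the 3 platform-named probe sets closest to each gene by correlation, and UBC21. Markers and genes often induced by auxin were named outside this rule, after their values were seen. Not every auxin transport gene with a named probe set is reported here.

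For NAA and mock, deviations from the group means correlated at over 0.1 for each of the 3 same-numbered pairs (0.32, 0.38 and 0.45). The numbers were therefore taken to pair these arrays. Deviations within a group depend on each other, and the third array stood apart in both groups, so that pairing is not established. In the other comparisons the correlation was not over 0.1 for every number (0.08 and 0.04 at the lowest). The fit as reported had no term for the number, and a fit with it was an alternative.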

Additional observations from a re-analysis of the deposited data

How the results depend on the processing

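ABCB21 and LAX3 stayed called against labelled mock, and uncalled between NAA+BA and NAA, under each alternative run, and WAG2 was not called under any. Both ABCB21 and LAX3 are entries of the published list, which was selected on these same arrays. That they stayed called against labelled mock is therefore not independent evidence. With the replicate block the adjusted p for NAA against mock was 4.63e-04 for ABCB21 (2.22) and 4.48e-04 for LAX3 (1.55), and the block changed no other call of the 3 genes. With single arrays left out, ABCB21 ranged from 1.96 to 2.50 for NAA against mock, from 2.37 to 2.84 for NAA+BA against mock and from 0.15 to 0.60 for NAA+BA against NAA. LAX3 ranged from 1.29 to 1.83, from 1.68 to 2.14 and from 0.12 to 0.58 in the same order. WAG2 ranged from -0.11 to 0.0445 for NAA against mock, changing sign without mock replicate 3 (0.0357) and without NAA replicate 1 (0.0445), from 0.0143 to 0.16 for NAA+BA against mock and from 0.0452 to 0.19 for NAA+BA against NAA. The filter on dim probe sets gives no value for WAG2. With array weights, NAA+BA against NAA had the lowest adjusted p of all alternatives, 0.234 for ABCB21 (0.56) and 0.229 for LAX3 (0.45).

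The count of all probe sets called moved more than the 3 genes did, and the cause was not tested. Between NAA and mock, 1091 became 1734 with array weights, 4179 with no fold change threshold, 1970 with arrays numbered 1 and 2 only, and 732 to 2041 with single arrays left out, the highest without mock replicate 3. Between NAA+BA and mock, 1241 became 4542 with no fold change threshold, 802 at an adjusted p under 0.01, 1942 with arrays numbered 1 and 2 only, 741 without mock replicate 1 and 2167 without mock replicate 3. Between NAA+BA and NAA, 2 became 7 with the replicate block and with arrays numbered 1 and 2 only, 30 with array weights, 1 with quantile normalization again, with centring on the array median, with only the 6 arrays compared and at an adjusted p under 0.01, and 1 to 4 with single arrays left out.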
